A study of Mus musculus with 6 samples.

Results

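The mouse miR-297, miR-466, miR-467 and miR-669 genes were followed in pluripotent Embryonic Stem Cells (ESCs) and in the Neuronal Cells (NCs) that form from them under retinoic acid (RA). The members were taken by name: every row of the deposited miRNA table whose identifier was mir-297, mir-466, mir-467 or mir-669 followed by a letter. This gave 80 of 898 rows, which carry 43 names, because 9 names have several gene copies. In all, 72 of the 80 rows (35 of the 43 names) had a level above 0.

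The cells were of the mouse ESC line E14Tg2a at passages 37 to 40. The ESC group was kept in Leukemia Inhibitory Factor (LIF), and the NC group was grown as monolayers without LIF in 1 µM RA for 48 h. Each group had 3 small-RNA libraries from replicate samples of this 1 line, whose RNA was processed separately per the labels. The table gives the mean normalized read count of each group, and the whole reads behind each mean were recovered from its 10 decimals, which gave the values of the 3 libraries. Libraries are called A, B and C in order of falling depth and cannot be matched to a labelled replicate number.

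Every member's reads were recovered. Over all miRNAs 98.4% of the values above 0 in ESCs and 96.7% in NCs were recovered, and these held between 99810 and 450012 reads per library. The values not recovered were among the most abundant miRNAs, since the recovered ones held 24.7% of the ESC signal and 10.4% of the NC signal. Library C, the shallowest of each group, stood apart from A and B, and results are therefore also given without it. All 11 pluripotency miRNA genes checked (miR-290 and miR-302 type) had a lower mean in NCs. All 12 neural miRNA genes checked, limited to mir-9, mir-124, mir-138, mir-219a and mir-135a, had a higher one. All 5 muscle miRNA genes of the miR-1 and miR-133 type were at 0 in both groups. The 2 blood miRNA genes checked summed to 2.92 in ESCs and 2.99 in NCs, and the 1 liver gene was at 0.411 and 0. In bulk cultures such as these, fewer cells of a type and less RNA per cell cannot be told apart.

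miRNAs are cut from hairpin precursors by Drosha and Dicer, and the mature strand guides Argonaute to mRNAs mainly through its seed, bases 2 to 8. Most mouse miR-297, miR-466, miR-467 and miR-669 genes form a tandem array in an intron of Sfmbt2, and this array is specific to rodents. Sfmbt2 is a Polycomb group gene that is imprinted and expressed from the paternal allele. The array is known for its expression in mouse ESCs and placenta. Many of the hairpins are built around runs of alternating U and G or C and A.

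RefSeq's table for GRCm38.p6 gave a mature sequence for 7 of the 80 members. None of the 7 lies in Sfmbt2, so they show the repeat character of these outside members only, not that of the array. Only 2 of them, miR-466k and miR-466i-3p, belong to a hairpin with reads in these cells. The capitals mark the seed.
miR-466k: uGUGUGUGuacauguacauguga
miR-466i-3p: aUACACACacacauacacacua
miR-466q: gUGCACACacacacauacgu
miR-466j: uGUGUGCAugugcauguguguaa
miR-467f: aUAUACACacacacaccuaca
miR-467g: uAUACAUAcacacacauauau
miR-467h: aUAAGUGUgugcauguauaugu
No seed was shared between any of the 7. The longest stretch of alternating U and G, or of alternating C and A, ran from 7 to 12 bases. The motif ACACAC or UGUGUG, read on the mature strand, was in 7 of these 7 sequences and in 39 of the 1738 mature sequences of the table (2.24%, the 7 included). Of the 818 other miRNA genes of the deposited table, 735 had a mature sequence in RefSeq's table, and none of these shared a seed with miR-466k or miR-466i-3p. The seeds of the members without a sequence there were not compared.

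The deposited values are per hairpin gene, and GENCODE M21 (GRCm38, the assembly also called mm10) placed 79 of the 80 members. mir-466a was left without a position. Sfmbt2 lies on the plus strand at chr2:10370510-10595253, a length of 224.744 kb. It held 70 members, all on its own strand, from chr2:10466663 to chr2:10518279, a span of 51.617 kb. All 70 lay in 1 intron, chr2:10461473-10523944, which is intron 11 of the principal transcript Sfmbt2-205 and intron 10 of Sfmbt2-201, and none overlapped an annotated exon. No other miRNA of the table lay in Sfmbt2. Neighbouring members started a median of 300 bases apart.

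The middle of the array was regular. The 10 copies of mir-467a started between 2413 and 4880 bases apart, with a median of 2462. Of the 11 copies of mir-467a and mir-467b, 10 were followed by a mir-466 hairpin and then by a mir-669 hairpin. The plot along the intron shows this repeat as a row of near-equal levels, with the most abundant hairpins, mir-467c and mir-467d, on either side of it.

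**Figure D1:**
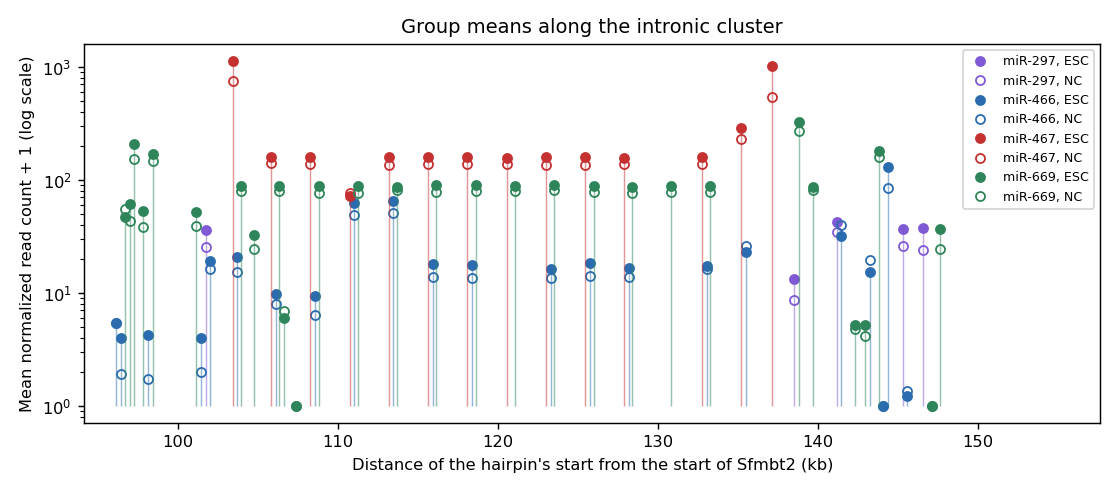
Mean normalized read count + 1 (log axis) of the 70 members in the Sfmbt2 intron against the distance of each hairpin's start from the start of Sfmbt2 in kb; filled points are ESC means, open points NC means, and colours mark the family. The copies of mir-467a lie near 158 in ESCs and 137 in NCs, between mir-467c and mir-467d, which were the highest in both groups.

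Of the 70 members inside Sfmbt2, 67 had a level above 0, against 4 of the 9 placed elsewhere. The 4 outsiders with a level above 0 were mir-297a-1 (chr7:10958437-10958512), mir-466f-4 (chr13:71107089-71107209), mir-466i (chr13:17747473-17747593) and mir-466k (chr3:85467377-85467498). mir-466j, mir-466q, mir-467f, mir-467g and mir-467h, also outside, and mir-466g, mir-669i and mir-669j, inside, were at 0 in every library. A count of 0 allows up to 3 reads per library, or between 1.30 (NC library A) and 5.48 (ESC library C) normalized reads, for counting error only.

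mir-297a and mir-466f are the names with copies both inside and outside Sfmbt2. The 4 copies of mir-297a had ESC means of 34.8 to 36.7, so the copy on chromosome 7 (35.2) could not be told from the copies on chromosome 2. The 4 copies of mir-466f differed: mir-466f-4 on chromosome 13 had an ESC mean of 84.6, and the 3 copies in Sfmbt2 had ESC means between 2.96 and 3.26.

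The levels of the gene copies were much closer to each other than separate genes counted separately would be. If each copy had its own independent reads, the variance of reads over copies divided by their mean would be near 1 or above. For the 10 copies of mir-467a this ratio was 0.0094 to 0.090 over the 6 libraries, and for the 14 copies of mir-669a and mir-669p it was 0.031 to 0.098. For the 4 copies of mir-297a, the copy outside Sfmbt2 included, it was 0.082 to 0.253. In ESC library A, for example, the mir-467a copies held between 305 and 310 reads. The copies of these names therefore cannot be read as separate measurements, and each was also counted once, as the mean of its copies. The 8 copies of mir-466b had ratios of 0.367 to 0.959, and the 4 of mir-466f had ratios of 37.4 to 87.9. Counting once averaged every name with copies, also mir-466f, whose copies differ. Its ESC mean counted once was 23.5, against 84.6 for mir-466f-4, and this lower value enters the sums, medians and counts over names.

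**Figure D2:**
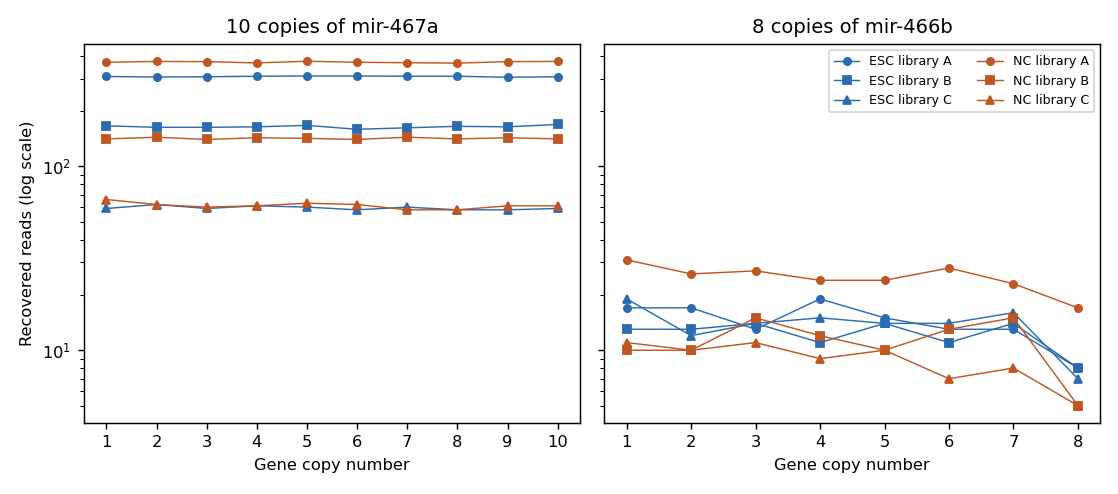
Recovered reads (log axis) of each gene copy of mir-467a (left) and mir-466b (right) in the 3 ESC libraries (blue) and the 3 NC libraries (orange), lines joining the copies of 1 library. The mir-467a lines are flat, with 305 to 310 reads per copy in ESC library A, while the 8th copy of mir-466b lies below the other 7 in every library.

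The copies also set how much room these families take in the table. They made up 8.91% of all rows, 11.4% of the rows above 0 and 19.2% of the rows with enough reads to test, but 6.21% of the names above 0. Of the summed normalized signal they held 0.630% in ESCs and 0.351% in NCs, or 0.392% and 0.204% with each name counted once. This fall in share depends on 1 other miRNA. mir-10a had an authors' mean of 2136 in ESCs and 754551 in NCs, and without it the members' share was 0.631% in ESCs and 0.664% in NCs.

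miR-467 was the most abundant of the 4 families. With names counted once, mir-467c and mir-467d alone made up 48.6% of the members' summed ESC level and 40.5% of the NC level. The summed miR-467 level was 2245, 2068 and 3644 normalized reads in ESC libraries A, B and C and 1554, 1661 and 1963 in NC libraries A, B and C. For miR-669 the sums were 1245, 1422 and 1185 in ESCs against 1093, 1061 and 1067 in NCs. In both families each ESC library exceeded each NC library. The miR-466 sums were 319, 373 and 414 in ESCs against 290, 269 and 361 in NCs, and the miR-297 sums were 96.5, 116 and 55.7 in ESCs against 81.3, 68.1 and 47.5 in NCs. Both of these overlapped between the groups at the deposited scaling. Summed over all members the level was 3906, 3978 and 5298 in ESCs against 3019, 3059 and 3439 in NCs, without overlap. These gaps hold for the deposited scaling and for equal group totals. With equal group totals the NC sums of miR-466 became 208, 194 and 260, each below the 3 ESC values, while miR-297 still overlapped. With equal totals without mir-10a the NC sums over all members became 4093, 4148 and 4664, within the ESC range, the miR-467 sums became 2107, 2252 and 2662, also within it, and each miR-669 sum (1483, 1439 and 1447) lay above the 3 ESC values.

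Group means were lower in NCs for 64 of the 72 members above 0 and for 27 of the 35 names. Over all miRNAs above 0 the means were lower for 301 and higher for 333. The median log2 difference, NC minus ESC on the scale log2(value + 1), was -0.22 over the members and -0.25 over the names, against 0.07 over all miRNAs. Among the miRNAs with enough reads to test, the medians were -0.22 for the members and -0.08 for all miRNAs, so that the sign of the latter turned and the gap was smaller. After centring on the median of the miRNAs whose mean was 10 or more, the members' median was -0.14. By family the medians over rows were -0.51 for miR-297, -0.28 for miR-466, -0.21 for miR-467 and -0.17 for miR-669. Over names they were -0.54 for miR-297, -0.13 for miR-466, -0.33 for miR-467 and -0.22 for miR-669. The order of the families thus differed between rows and names. The members' median depends on the scaling. When the group totals were set equal it was -0.68, and when they were set equal without mir-10a it was 0.22, in the opposite direction, because these scalings move every log2 difference by -0.48 and 0.44. The median was larger in size in the 2 deeper libraries of each group (-0.31) than between the shallowest libraries (-0.09).

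**Figure D3:**
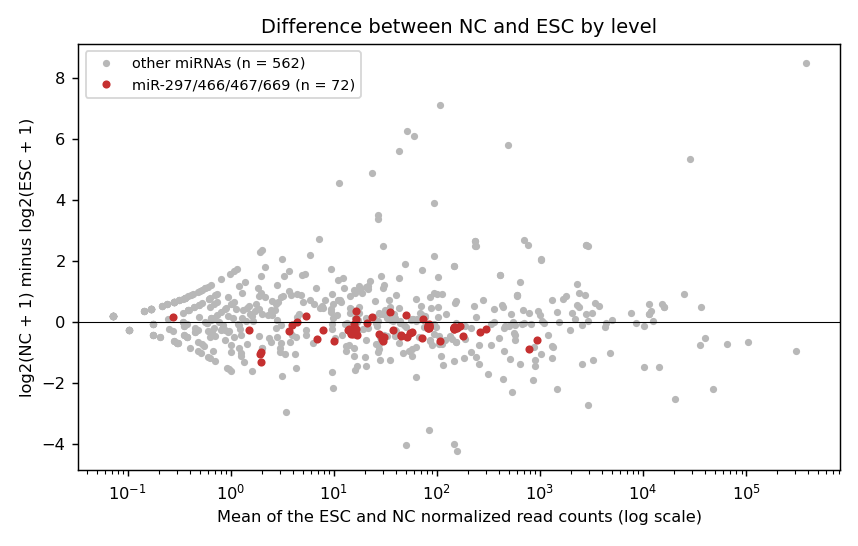
Log2 difference between the NC and ESC means, on the scale log2(value + 1), against the mean of both groups (log axis) for the 72 members above 0 (red) and the 562 other miRNAs above 0 (grey), 1 point per row of the table. The members lie close to the zero line, mostly below it, with a median of -0.22, while other miRNAs reach differences several times larger in either direction.

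With group as the only term, no difference of a single member was called against the spread of all libraries. Of the members, 61 (29 names) had at least 10 reads in at least 3 libraries and were tested with limma-voom beside all other miRNAs that passed. At an adjusted p under 0.05 none of the 61 members was called, where 16.0% of the 318 miRNAs tested were called in either direction and 5.97% were called lower in NCs. 1 member, mir-467c, had an unadjusted p under 0.05. The count was also 0 with limma-trend, with no filter on low reads and with a filter on every library. It was 0 as well with copies counted once, without each library in turn and with equal library totals of the recovered reads. Those reads held only 24.7% of the ESC signal and 10.4% of the NC signal. No fit was run with equal group totals of the whole signal, with or without mir-10a.

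Since library C stood apart in both groups, the depth rank (A, B or C) was also fitted as a covariate. This covariate sets libraries of the 2 groups side by side by order of depth alone, not by replicate, which limits its p-values. With it limma-voom called 4 of the 61 members (6.56%), all lower in NCs, beside 19.8% of all 318 miRNAs called lower and 40.9% called in either direction. These were mir-467c (adjusted p = 0.0184), mir-467d (adjusted p = 0.0210), mir-466h (adjusted p = 0.0215) and mir-466f-4 (adjusted p = 0.0421). In the 2 deeper libraries of each group alone, 9 of 62 members were called, all lower in NCs, beside 21.8% of the 326 miRNAs then tested called lower and 50.0% called in either direction. The additional members were mir-467e, mir-669b, mir-669e and both copies of mir-466c. In each of these fits the share of members called lower was below that of all miRNAs tested.

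A count of members without overlap between groups gave a like picture. In 5 of the 61 tested members (8.20%) every ESC library was above every NC library, against 14.5% of all miRNAs tested. These were mir-467c, mir-297a-2, mir-297a-4, mir-669d and mir-669d-2, which carry 3 names. In none of the 61 was every NC library above every ESC library, against 17.0% of all miRNAs tested. With copies counted once, mir-467c and mir-669d were the 2 of 29 names (6.90%) without overlap, against 15.6% of all names tested, while mir-297a overlapped, with 26.5 in ESC library C and 27.5 in NC library A. No name lay higher in all NC libraries, against 16.7% of all names.

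The count without overlap followed the scaling. With equal group totals, 34 of the 61 members (55.7%) had every ESC library above every NC library, against 30.2% of all miRNAs tested, and none had the reverse, against 10.4%. With equal totals without mir-10a the first count was 0, against 7.23% of all miRNAs tested, and in 7 members (11.5%) every NC library was above every ESC library, against 27.0%.

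**Figure D4:**
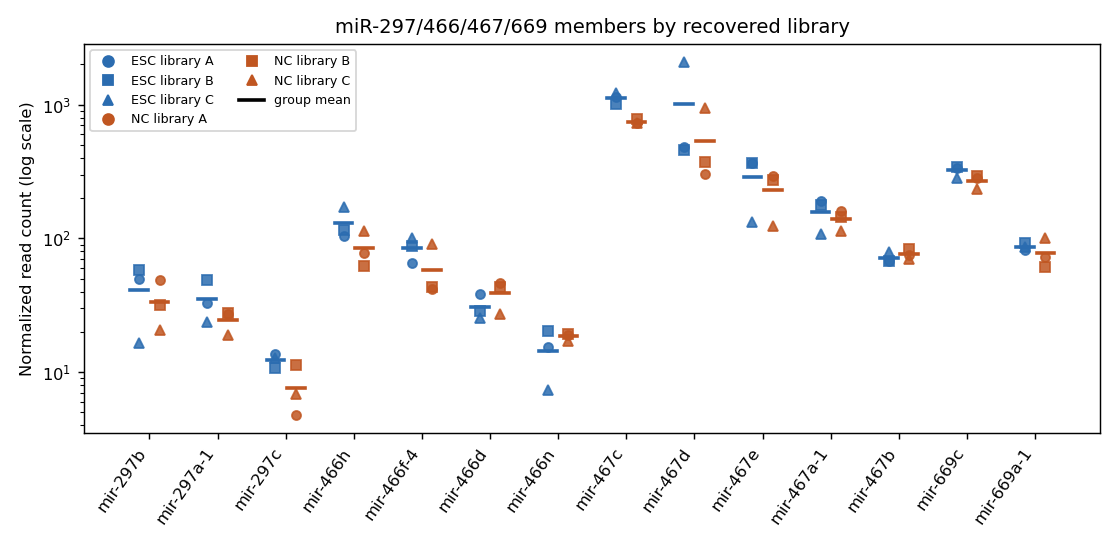
Normalized read count (log axis) of 14 members in the 3 ESC libraries (blue) and the 3 NC libraries (orange); circles, squares and triangles are libraries A, B and C, and bars are group means. At the deposited scaling the ESC points lie above all NC points for mir-467c, while for mir-467d and mir-467e the triangles lie far from the other points of both groups, in opposite directions.

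The miR-467 family, whose members are described as repressing the angiogenesis inhibitor thrombospondin-1, held the highest levels. mir-467c was at 1140, 1004 and 1229 normalized reads in ESC libraries A, B and C and at 724, 784 and 728 in NC libraries A, B and C. The groups did not overlap, though with equal totals without mir-10a the NC values became 981, 1063 and 988 and reached into the ESC range. The log2 difference was -0.59 (SE 0.244, adjusted p = 0.176 with group as the only term). Of the 10 names chosen by the naming rule it had the narrowest range of log2 differences when each library was left out, from -0.67 to -0.52.

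mir-467d was at 480, 454 and 2094 in ESCs and at 304, 375 and 937 in NCs. Library C was the high one in both groups, and NC library C lay above ESC libraries A and B. The log2 difference was -0.70 (SE 0.719, adjusted p = 0.638). Without ESC library C it turned to 0.12. Within the deeper libraries it was -0.46, and between the shallowest ones -1.16.

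mir-467e went the other way with depth, at 368, 366 and 133 in ESCs against 292, 273 and 123 in NCs. Its library C was the lowest in each group. The ratio of mir-467d to mir-467e, which no scaling of a library can change, was 1.30, 1.24 and 15.7 in ESC libraries A, B and C and 1.04, 1.37 and 7.61 in the NC libraries.

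mir-467a, as the mean of its 10 copies, was at 190, 175 and 109 in ESCs against 160, 145 and 105 in NCs, again lowest in library C. mir-467b was at 67.2, 68.3 and 78.6 in ESCs against 74.6, 82.9 and 70.1 in NCs, and was the only miR-467 name with a higher NC mean. The ratio of mir-467c to mir-467b was 17.0, 14.7 and 15.7 in ESCs against 9.70, 9.46 and 10.4 in NCs. These ratios did not overlap between the groups, but the pair was chosen after the values were seen and is given with no test.

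In miR-466, mir-466h, described as pro-apoptotic in glucose-deprived hamster ovary cells, was the most abundant in ESCs. It was at 104, 115 and 172 in ESCs and at 77.2, 62.5 and 113 in NCs. Only NC library C reached into the ESC range, and the log2 difference was -0.66 (SE 0.317, adjusted p = 0.250). Its difference was -0.64 when taken from the deeper libraries and -0.60 when taken from the shallowest.

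mir-466f-4, the copy on chromosome 13, was at 66.0, 87.5 and 100 in ESCs and at 41.6, 43.0 and 90.6 in NCs. NC library C again lay within the ESC range, and the log2 difference was -0.69 (SE 0.350, adjusted p = 0.276). The 3 other copies had between 0 and 4.27 normalized reads in every library, too few for the test.

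mir-466d and mir-466n had the largest differences toward NCs. mir-466d was at 38.2, 28.8 and 25.6 in ESCs and at 46.4, 43.0 and 27.4 in NCs, with a log2 difference of 0.33 (SE 0.313, adjusted p = 0.622). mir-466n was at 15.4, 20.3 and 7.31 in ESCs and at 19.1, 19.5 and 17.1 in NCs, with a log2 difference of 0.36 (SE 0.389, adjusted p = 0.660). The groups overlapped for both. mir-466k, one of the hairpins with a printed mature sequence, was at 19.7, 30.9 and 12.8 in ESCs against 23.8, 19.5 and 18.8 in NCs, and the NC values lay inside the ESC range.

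In miR-297, the smallest family, all 6 rows had a level above 0 and a lower NC mean, but they carry only 3 names. Of these rows 4 are copies of mir-297a, which cannot be read as separate measurements. mir-297a-1 was at 32.7, 49.1 and 23.7 in ESCs and at 27.3, 27.6 and 18.8 in NCs, with a log2 difference of -0.44 (SE 0.339, adjusted p = 0.515). mir-297c was at 13.6, 10.7 and 12.8 in ESCs and at 4.77, 11.3 and 6.84 in NCs, with a log2 difference of -0.91 (SE 0.460, adjusted p = 0.276). It rested on 4 to 22 reads per library. mir-297b was at 49.9, 57.6 and 16.4 in ESCs and at 49.0, 31.7 and 20.5 in NCs, with a log2 difference of -0.19 (SE 0.509, adjusted p = 0.889), and its sign turned when ESC library A or B was left out.

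In miR-669, mir-669c was the most abundant, at 338, 343 and 285 in ESCs and at 285, 295 and 233 in NCs. The ranges overlapped, and the log2 difference was -0.26 (SE 0.234, adjusted p = 0.597). mir-669a, described as repressing the muscle regulator MyoD, was at 81.9, 91.7 and 87.7 in ESCs against 73.2, 64.4 and 96.6 in NCs as the mean of its 12 copies. mir-669b was at 207, 275 and 137 in ESCs against 189, 168 and 95.8 in NCs. mir-669f was at 38.8, 60.8 and 38.4 in ESCs against 51.2, 47.1 and 65.0 in NCs, and was the only tested miR-669 name with a higher NC mean. All 4 overlapped between the groups.

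Within each group, library C differed more from A and B than A differed from B. No allowance was made for counting error, which is largest in library C, the shallowest. For the 29 names tested, the log2 difference of library C from the mean of A and B had an SD of 0.894 in ESCs and 0.680 in NCs, while the difference of A from B had an SD of 0.325 and 0.313. The deviations of library C were alike in both groups: 23 of 29 names deviated in the same direction, 12 up and 11 down. Across names, Pearson's r was 0.850 and Spearman's rho was 0.821, given as a description, since the names share libraries and depth. By the mean of the 2 groups' deviations, the names farthest up were mir-467d (2.16 in ESCs and 1.46 in NCs), mir-466o (1.37 and 1.08), mir-669h (1.15 and 1.28) and mir-669k (1.39 and 0.87). Those farthest down by the same mean were mir-467e (-1.45 and -1.19) and mir-297b (-1.65 and -0.94).

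**Figure D5:**
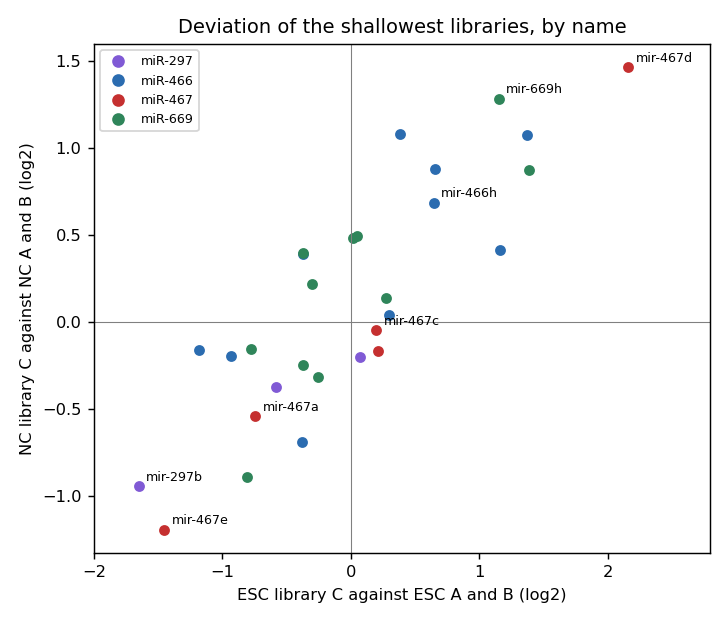
Log2 difference of library C from the mean of libraries A and B in NCs against the same in ESCs, 1 point per tested name (29), coloured by family, on the scale log2(normalized read count + 1). The points run from mir-467e and mir-297b at the lower left to mir-467d at the upper right, and 23 of the 29 lie in the quadrants of equal sign.

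The other miRNAs showed the same pattern. Among the 234 other names tested, 195 (83.3%) deviated in the same direction in both groups, against 79.3% of the members, with a Pearson's r of 0.761 and a larger SD of library C of 1.47 in ESCs and 1.29 in NCs. Depth, and anything else that differed between library C and the others, moved with these values, and their part in the result was not tested. Compared at like depth rank, 23 of the 29 names were lower in NCs in the deeper libraries, 19 were lower in the shallowest, and 16 were lower in both. The medians of these log2 differences were -0.33 and -0.15.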

How the data were processed

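Small-RNA libraries from E14Tg2a ESCs (3) and NCs (3) were sequenced by the authors. The deposited table gives per miRNA gene a normalized read count signal as the authors' group mean; the submitters' processing notes name DESeq and mm10, with the aligner and the counting rule not given in the sources used here. Its fold changes and p-values are the authors' comparisons and were not used. Each mean averages, over 3 libraries, whole reads divided by library size factors (1.62, 0.937 and 0.547 in ESCs; 2.31, 0.977 and 0.585 in NCs), which were found by enumeration. On simulated means 490 of 490 and 540 of 540 resolved values were right. How reads matching several gene copies were assigned is not given in the sources used here.

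The recovered reads were compared with limma-voom (limma 3.58.1, R 4.3.3), group as the only term, on miRNAs with at least 10 reads in at least 3 libraries, with Benjamini-Hochberg adjustment over all of them. On simulated libraries of 612 miRNAs, of which 200 were changed 4-fold, 108 of the changed were tested, 103 were called and 1 call was false. The simulated libraries had no deviation of library C. Their changes, 4-fold, were also larger than that of any tested member, whose log2 differences of means reached -0.91. The simulation therefore does not give the power to call these members. The sources used here do not say that the replicates were separate cultures, so the p-values measure only the spread between these libraries, which may be technical. Medians used log2(value + 1). Named members were, per family, the name with the highest ESC mean, and over all families those with the smallest p and the largest differences in each direction. Other members were added to the text after their values were seen. Positions were from GENCODE M21 and sequences from RefSeq, matched by symbol. Members and lists were chosen with earlier results of these data known.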

Additional observations from a re-analysis of the deposited data

How the results depend on the processing

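The count of members called was 0 with group as the only term, 4 with depth rank as a covariate, 9 in the 2 deeper libraries of each group, and 3 with depth rank and copies counted once, an alternative chosen after seeing the data. The last fit called 3 of 29 names (10.3%), all lower in NCs. Of all 261 names in it, 57 (21.8%) were called lower and 112 were called in either direction. In that limma-voom fit mir-466f, as the mean of its copies, was not called (adjusted p = 0.114). Leaving out each library in turn gave 0 to 0 calls and a median log2 difference from -0.33 to -0.15. That median was -0.68 with equal totals and 0.22 with equal totals without mir-10a. The share of signal was 0.392% in ESCs and 0.204% in NCs with copies counted once, and 0.664% in NCs without mir-10a. With each library left out, mir-297b ranged from -0.60 to 0.041 and mir-467d from -1.25 to 0.12. mir-297b turned to 0.041 without ESC library A and to 0.0049 without ESC library B, and mir-467d turned to 0.12 without ESC library C; the cause was not tested. Of 100 recomputed differences of named members, 93 kept their direction and side of the threshold, 4 gained a call and 3 turned. Depth limits members under 10 reads, which were not tested, and the shallowest libraries, in which 1 read is worth 1.83 (ESCs) and 1.71 (NCs) normalized reads. The counts and sums without overlap at other scalings and with copies counted once were chosen after seeing the data. No paired analysis was possible because no library could be matched to a labelled replicate.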
